A study of Mus musculus with 12 samples.

Results

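Major urinary proteins (MUPs) and the carriers Rbp4 and Ttr are secreted products of the mouse liver, and their transcripts were followed here through every probe set that the platform table annotates to Mup1, Mup2, Mup3, Mup4, Mup5, Mup20, Mup21, Rbp4 or Ttr. This rule found 8 of 45037 probe sets, which belong to 4 of the 9 genes (of 18193 genes on the arrays): Mup3 with 2 probe sets, Mup5 and Rbp4 with 1 each, and Ttr with 4. None of the 8 was annotated to several Mup genes. Mup1, Mup2, Mup4, Mup20 and Mup21 had no probe set under their name and were not analysed here. A further probe set of the family, for Mup10, falls outside the rule and is given beside the others for comparison.

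The livers came from C57BL/6J mice aged 30 weeks. LDC (low-dose cadmium) male and LDC female mice had 100 nM CdCl2 in the drinking water for life, starting with the dams 1 week before mating, and control male and control female mice received water alone. Each of the 4 groups had 3 Affymetrix mouse genome arrays, labelled as biological replicates. The comparisons address the long-term effect of cadmium on the liver and its dependence on sex.

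MUPs are small lipocalins, barrel-shaped carriers of hydrophobic ligands, that hepatocytes release into blood for excretion in urine, where they bind pheromones. Many Mup genes are expressed more strongly in male liver, under the pulsatile growth hormone of males acting through STAT5b. Rbp4 (retinol-binding protein, also a lipocalin) carries vitamin A out of the liver, and transthyretin, the product of Ttr, is not a lipocalin but binds Rbp4 in plasma and carries thyroxine.

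All 22 protein-coding Mup genes in the RefSeq gene table (GRCm38.p6) lie on chromosome 4, and 24 Mup pseudogenes are listed. Both Mup3 probe sets carry the suffix by which the manufacturer marks probes that may bind related transcripts, so their signal cannot be assigned to Mup3 alone. The likeness within the family shows in the promoters. The 250 bases upstream of the start are printed for Mup3, the one Mup gene with both a probe set and a promoter entry, for Mup21, whose promoter was the most similar to it of those used, and for Mup4, with the second start of Rbp4 as a promoter of unrelated sequence. All come from RefSeq and lie on the minus strand (Mup3 at chr4:62087318-62087567, Mup21 at chr4:62150842-62151091, Mup4 at chr4:59960668-59960917, Rbp4 at chr19:38124812-38125061). Capitals mark the core of a glucocorticoid receptor site (AGAACA, which reads TGTTCT on the strand shown) or a TATA box (TATAAA).
Mup3: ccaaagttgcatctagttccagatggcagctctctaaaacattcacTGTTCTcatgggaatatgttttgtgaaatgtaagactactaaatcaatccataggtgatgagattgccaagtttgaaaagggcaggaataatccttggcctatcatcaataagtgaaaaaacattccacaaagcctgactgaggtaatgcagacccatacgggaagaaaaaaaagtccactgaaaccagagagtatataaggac
Mup21: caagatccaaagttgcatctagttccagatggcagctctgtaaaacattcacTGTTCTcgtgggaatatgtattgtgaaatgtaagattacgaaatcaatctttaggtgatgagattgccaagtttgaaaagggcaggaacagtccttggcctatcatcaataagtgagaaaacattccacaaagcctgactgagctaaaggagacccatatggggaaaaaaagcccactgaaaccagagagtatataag
Mup4: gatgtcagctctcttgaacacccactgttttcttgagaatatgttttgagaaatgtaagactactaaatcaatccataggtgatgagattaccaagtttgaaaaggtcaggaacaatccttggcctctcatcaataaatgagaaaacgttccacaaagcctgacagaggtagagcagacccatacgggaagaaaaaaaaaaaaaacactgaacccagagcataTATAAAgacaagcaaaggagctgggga
Rbp4, second start: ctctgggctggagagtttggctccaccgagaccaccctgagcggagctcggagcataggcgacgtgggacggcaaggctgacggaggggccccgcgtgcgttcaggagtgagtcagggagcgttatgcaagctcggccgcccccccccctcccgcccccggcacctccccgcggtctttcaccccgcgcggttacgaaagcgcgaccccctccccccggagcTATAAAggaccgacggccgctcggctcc
Mup3 and Mup21 were identical at 229 of 244 aligned bases (93.9%), and Mup3 and Mup4 at 88.6%. Searched on both strands, the letters AGAACA occurred 204 bases before the Mup3 start and 198 before the Mup21 start, and in 16.1% of the 32851 promoter windows of the table. TATAAA occurred 27 bases before the Mup4 start and 28 before the second Rbp4 start, and in 12.4% of the windows. A STAT5-type site (TTCNNNGAA, in 7.02% of the windows) and the C/EBP-type letters TTGCGCAA (0.164%) were in none of these windows, nor in those of Mup2 and of the first Rbp4 start. TTGCAA (5.34%), also of C/EBP type, was found in the Mup2 window only, 186 bases before the start. A missing match says only that these letters are not in the window.

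The deposited values are linear MAS 5.0 signals with no detection calls. All 8 probe sets passed the filter on low values (a mean log2 signal in the upper 60% of probe sets, which starts at a signal of 48.6), although the dim Mup3 probe set lay below that signal on 3 of the 12 arrays. All 10 hepatocyte markers were among the tested probe sets, with a summed signal of 400796 to 486999.8. Array medians ran from 95.1 to 110.3. Rbp4 stood at 63.9% to 78.6% of its array's highest signal, Ttr at 66.8% to 86.3% and the bright Mup3 probe set at 19.2% to 72.6%, a range in which array signals can be compressed. That range was not tested for saturation. Fewer hepatocytes and less transcript per hepatocyte cannot be told apart in such samples.

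Control female 1 stood apart for the bright Mup3, Mup5 and Mup10 probe sets, and this bears on every comparison that uses the control females. Its bright Mup3 signal was 3.14 times lower than the mean of the other 2 control females, taken over log2 signals (log2 -1.65), its Mup5 signal 2.72 times lower (log2 -1.45) and its Mup10 signal 5.43 times lower (log2 -2.44). Of all 27022 tested probe sets, 2.89%, 3.52% and 1.42% lay further down than these values on that array. The dim Mup3 probe set went the other way, at a log2 difference of 2.15, with its lowest control signal on control female 2. For Rbp4 the same difference was -0.17 and for Ttr -0.13 to -0.09 on the log2 scale. The 14 tested male-biased genes had a median of -0.48 on the same scale, beside 0.02 over all tested probe sets. Of these genes 8 were lowest on this array among the control females, as were 34.5% of all tested probe sets. The 7 macrophage and Kupffer cell markers summed to 31483 on control female 1, against 12533 and 23591 on control females 2 and 3, and the 6 stellate cell markers to 25939, against 16197 and 17013. The 5 neutrophil markers summed to 5578, against 3143 and 4931. The 10 hepatocyte markers summed to 403104, against 430967 and 440215. Of them 7 were lowest on control female 1 (34.5% of all tested probe sets), at a median log2 difference of -0.11 from the other 2. The 3′/5′ ratio of the actin control probe sets, a sign of RNA quality, was highest on control female 1 of all 12 arrays (2.21), with control female 2 at 2.15. It ran from 1.64 to 1.98 in LDC female and from 1.97 to 2.21 in control female mice. The same ratio for Gapdh did not set control female 1 apart, at 0.79 within a range of 0.68 to 0.84 over the 12 arrays. The part of these cells and of RNA quality in the Mup values was not tested.

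LDC female mice had higher Mup5 signals than control female mice on every array, but the difference did not pass the test. Mup5 encodes a MUP known from salivary and lacrimal glands. Its signal was 1555, 1384 and 2045 in LDC female mice, against 353, 1150.2 and 806 in control female mice. The means were 1661 ± 343 and 769.8 ± 400 (SD, n = 3 each). The log2 difference was 1.25 (standard error 0.30, 95% interval 0.61 to 1.89), a 2.38-fold higher level, with an adjusted p of 0.157 from limma and an unadjusted p of 0.000901. That interval uses 1 spread shared over the 4 groups, although the SD of the log2 signal differed among them. The SD was 0.03 in LDC male, 0.10 in control male, 0.29 in LDC female and 0.87 in control female mice. The quieter male arrays therefore narrow the interval and lower the p-values. Without control female 1 the difference was 0.77 (1.70-fold, adjusted p = 0.167), and without control female 2 it was 1.62 (3.07-fold, adjusted p = 0.0175), so that 1 control array decides whether Mup5 passes the threshold. Over the 12 fits with 1 array left out, the sign stayed positive.

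The bright Mup3 probe set read 42419, 45334 and 43185 in LDC female mice, and 11747, 30307 and 44758 in control female mice. The LDC arrays lay close together, whereas the control arrays spread over most of the range of the probe set, and control female 3 lay within the LDC values. The means were 43646 ± 1511 in LDC female and 28938 ± 16548 in control female mice (SD, n = 3 each). The log2 difference was 0.79 (95% interval 0.13 to 1.46, adjusted p = 0.464 from limma), and without control female 1 it was 0.24 (1.18-fold, adjusted p = 0.715). The dim Mup3 probe set read 65.0, 16.3 and 62.0 in LDC female and 43.5, 1.72 and 55.8 in control female mice, with overlapping arrays and a log2 difference of 1.32 (adjusted p = 0.788). On this probe set the lowest control array was control female 2 and not control female 1.

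Mup10 also averaged higher in LDC female mice, and read 2188, 4134 and 3160.0 there, against 349, 2228 and 1610.0 in control female mice. Control female 2 lay just above the lowest LDC array. Mup10 differed by 1.50 on the log2 scale (95% interval 0.40 to 2.61, adjusted p = 0.388 from limma) and 0.69 without control female 1.

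**Figure D1:**
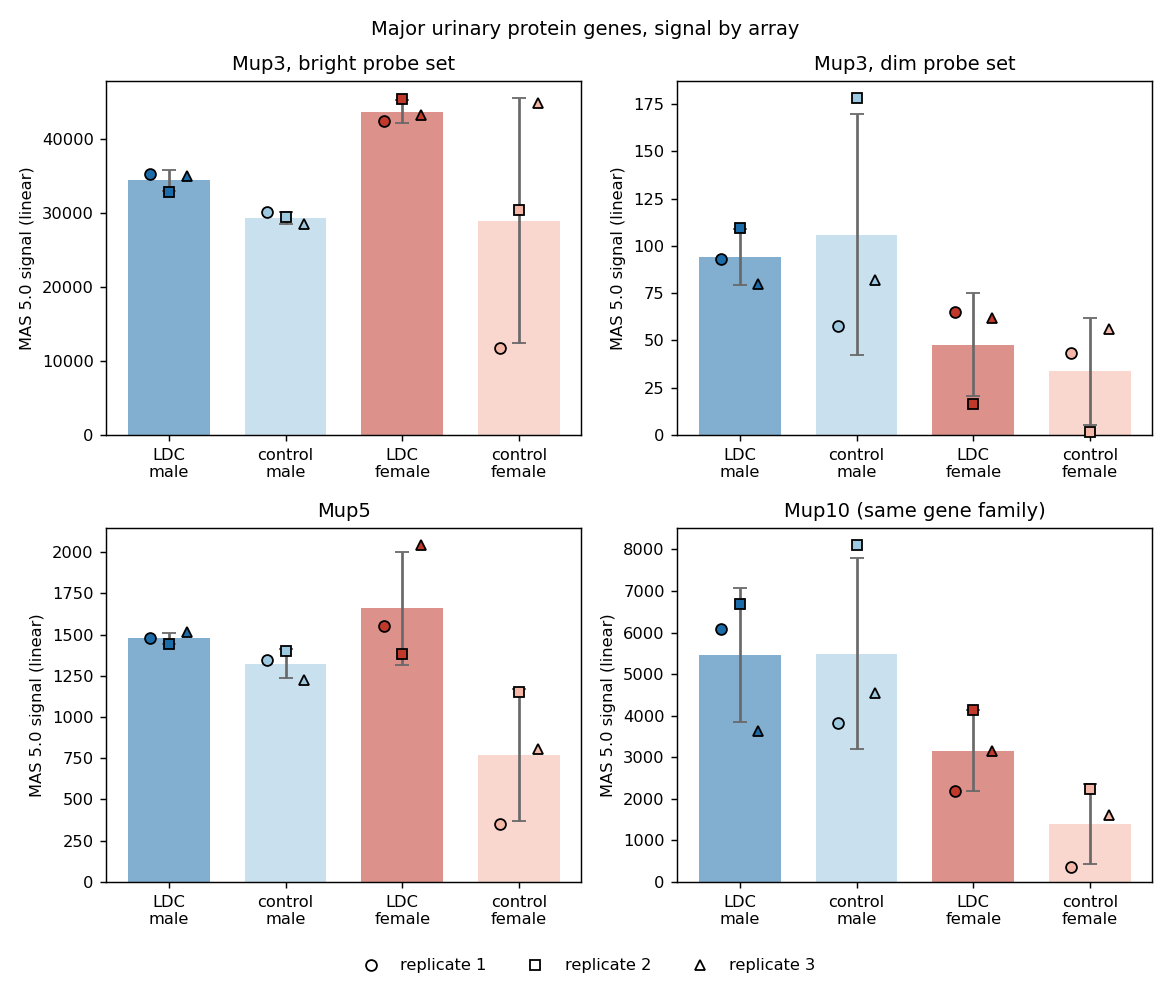
MAS 5.0 signal (linear axis from 0) of the Mup3, Mup5 and Mup10 probe sets in LDC male, control male, LDC female and control female mice. Bars show the mean, error bars the SD (n = 3), and points the single arrays with the replicate number as the marker. Control female 1 is the lowest array for the bright Mup3 probe set (11747), Mup5 (353) and Mup10 (349).

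For the carriers, the intervals of the difference between LDC and control females were narrow and held 0. Rbp4 read 40761, 46622 and 46759 in LDC female mice, and 39493, 44967 and 44044 in control female mice. This gave a log2 difference of 0.06 (95% interval -0.11 to 0.23, adjusted p = 0.872 from limma). Of the 4 Ttr probe sets, the one whose name carries no mark of cross-binding read 46693, 50439.9 and 47205 in LDC female mice, and 45461, 47265 and 49347 in control female mice. The arrays of the groups overlapped for all 4 Ttr probe sets, whose log2 differences ran from -0.05 to 0.05 with interval bounds between -0.23 and 0.21 and adjusted p-values of 0.893 to 0.963.

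In total, 0 of the 8 probe sets passed an adjusted p under 0.05 between LDC female and control female mice, where 0.122% of all tested probe sets did. At an unadjusted p under 0.05, from the fit with the shared spread, there were 2 (Mup5 and the bright Mup3), against 9.01% of all. Mup5 was the only one of the 8 with all LDC arrays above all control arrays, a pattern found in 7.16% of all tested probe sets. The median log2 difference was 0.06 over the 8 and 0.0056 over all. Neutrophil markers moved with the same groups: S100a8, S100a9 and Ngp fell in LDC female mice (3 of 4 tested, Ngp in only 3 of 12 fits with 1 array left out), and the 5 listed summed to 566 to 969 in LDC female mice, against 3143 to 5578 in control female mice. Macrophage and Kupffer cell markers summed to 5468 to 23953 and 12533 to 31483 in the same order, with 0 of 7 called. Their part in the Mup differences was not tested.

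**Figure D2:**
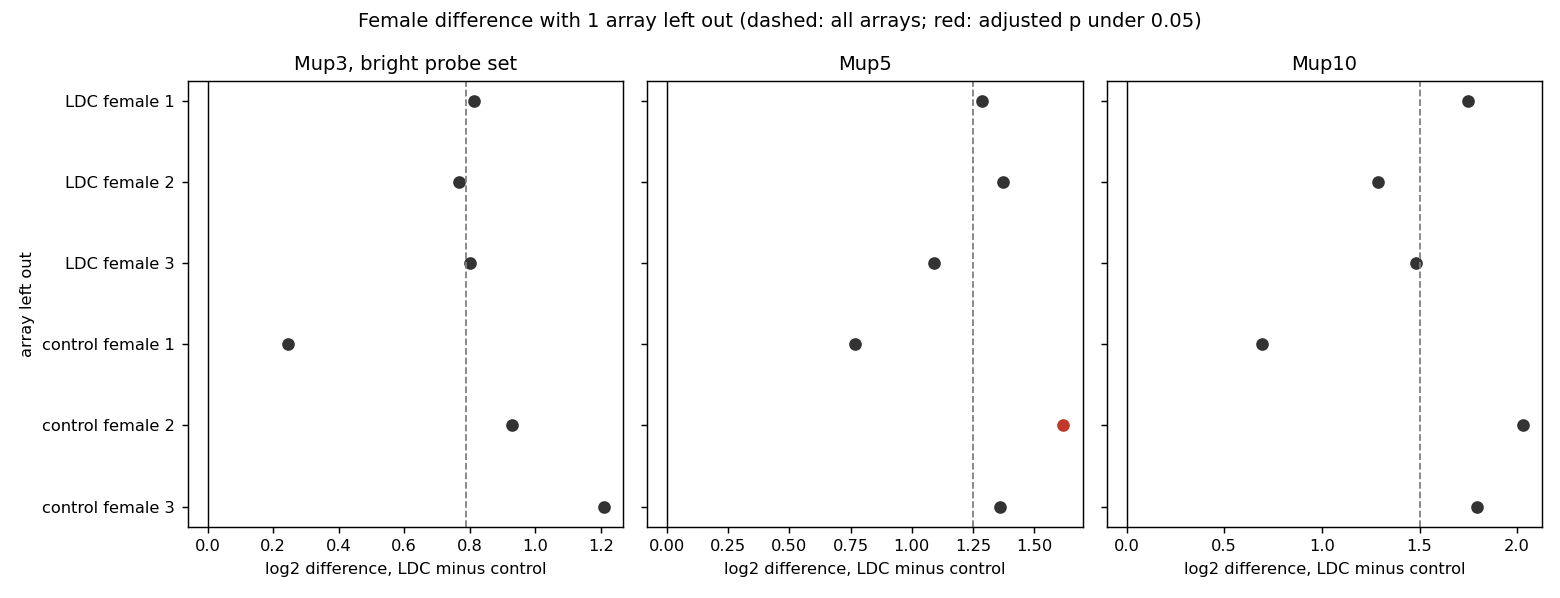
Log2 difference between LDC female and control female mice for the bright Mup3 probe set, Mup5 and Mup10 when the array named on the vertical axis is left out. The dashed line marks the value with all arrays and red an adjusted p under 0.05. All 3 probe sets have their smallest difference without control female 1, and only Mup5 without control female 2 is red.

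In males the Mup signals of LDC and control mice lay close together, and no difference passed the test. The bright Mup3 probe set read 35277, 32778 and 35006 in LDC male mice, against 30051, 29373 and 28463 in control male mice. Every LDC array lay above every control array, with means of 34354 ± 1372 and 29296 ± 797 (SD, n = 3 each). On the log2 scale they differed by 0.23 (95% interval -0.43 to 0.89, 1.17-fold, adjusted p = 0.865 from limma). This fit shares 1 estimate of the spread over the 4 groups, and the SD of the log2 signal was 0.06 in LDC male, 0.04 in control male, 0.05 in LDC female and 0.99 in control female mice.

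Mup5 read 1477, 1444 and 1513 in LDC male mice, and 1344, 1401 and 1227 in control male mice. These arrays also did not overlap. LDC exceeded control by 0.16 on the log2 scale (95% interval -0.48 to 0.80, adjusted p = 0.909 from limma). The dim Mup3 probe set read 92.8, 109.7 and 79.9 in LDC male and 57.6, 178 and 81.8 in control male mice, and Mup10 read 6092, 6677 and 3640.2 in LDC male and 3825, 8111 and 4549 in control male mice. Both overlapped, with log2 differences of -0.02 and 0.02.

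Rbp4 read 47990, 45995 and 47714 in LDC male mice, and 51355, 46369.6 and 48518 in control male mice, a log2 difference of -0.04 (95% interval -0.21 to 0.12, adjusted p = 0.903 from limma). The first Ttr probe set read 48705, 48339 and 46062 in LDC male mice, and 52849.9, 43829 and 53393 in control male mice. Over the 4 Ttr probe sets the log2 differences ran from -0.09 to -0.05, with interval bounds between -0.27 and 0.11. All 4 had overlapping arrays.

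Between LDC male and control male mice, 0 of the 8 passed the test, where 0.278% of all tested probe sets did. The 2 probe sets with all LDC arrays above all control arrays were the bright Mup3 and Mup5, against 8.62% of all. In the fit with the shared spread, no unadjusted p was under 0.05 (10.2% of all). The SD of the bright Mup3 log2 signal was 0.99 in control female, 0.06 in LDC male and 0.04 in control male mice. Sharing the spread therefore raises the male p-value, which does not show that LDC had no effect in males. Without control female 1 the bright Mup3 adjusted p was 0.466 from limma, and the lowest over the alternatives was 0.248. Neutrophil markers summed to 2930.0 to 3327 in LDC male mice, against 1179 to 1436 in control male mice, with S100a8 called higher (1 of 4 tested, called in 8 of 12 fits with 1 array left out), the opposite order to the females. Macrophage and Kupffer cell markers summed to 15111 to 20765 in LDC male and 10197 to 10562 in control male mice, with 0 of 7 called, and the 5 pancreatic acinar markers to 1119 to 1756 in LDC male and 2162 to 2623 in control male mice, with 0 of 3 tested called. Their part in the Mup values was not tested.

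**Figure D3:**
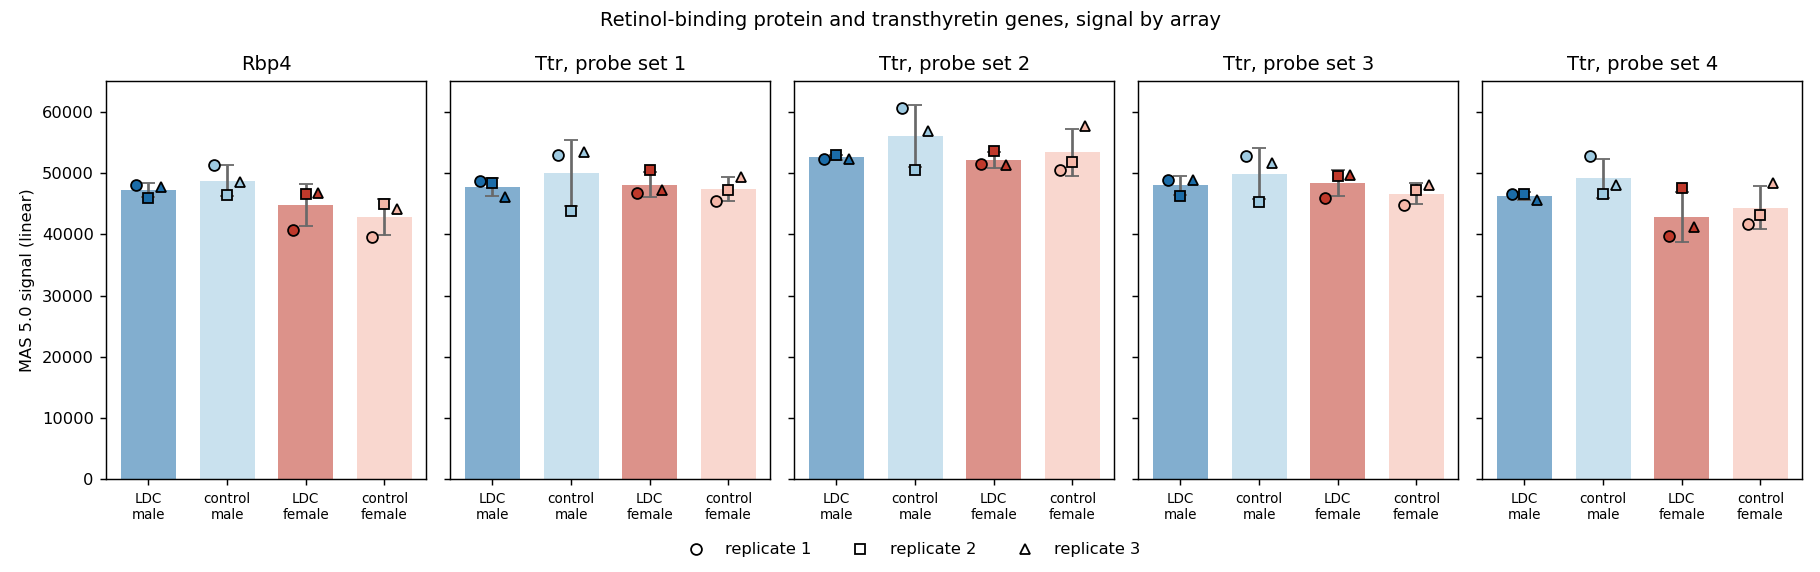
MAS 5.0 signal (linear axis from 0) of Rbp4 and the 4 Ttr probe sets in LDC male, control male, LDC female and control female mice. Bars show the mean, error bars the SD (n = 3), and points the single arrays. All values lie between 39493 and 60552, and the LDC and control arrays of each sex overlap on every probe set.

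The difference of the 2 LDC effects (male minus female) tests the dependence on sex directly. It was negative for all 8 probe sets, from -1.34 (dim Mup3) to -0.03, beside a median of -0.0059 over all tested probe sets. The 8 belong to 4 genes and share the same arrays, so their signs are not separate observations. Without control female 2 the dim Mup3 value was 0.27. In this contrast 0 of the 8 passed the test, where 0.178% of all tested probe sets did. The value for Mup5 was -1.09 (standard error 0.42, adjusted p = 0.398 from limma), and for the bright Mup3 -0.56 (95% interval -1.50 to 0.37, adjusted p = 0.705). Without control female 1 the values were -0.61 and -0.02. Averaged over the sexes, the LDC effect was 0.71 for Mup5 (95% interval 0.25 to 1.16, adjusted p = 0.273) and 0.51 for the bright Mup3 (adjusted p = 0.488), and again 0 of 8 passed (0.0444% of all).

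Between control male and control female mice the median log2 difference of the 8 probe sets was 0.17, beside -0.0167 over all tested probe sets. The bright Mup3 probe set averaged 29296 in control male and 28938 in control female mice, a log2 difference of 0.22 (95% interval -0.44 to 0.88, adjusted p = 0.744 from limma). Without control female 1 it was -0.33 (adjusted p = 0.159), so the direction rests on that array. Mup5 averaged 1324 in control male and 769.8 in control female mice, without overlap, at 0.94 on the log2 scale (95% interval 0.30 to 1.58, adjusted p = 0.0742). Without control female 1 it was 0.46 (adjusted p = 0.185) and without control female 2 it was 1.31 (adjusted p = 0.00764). The dim Mup3 probe set averaged 105.9 in control male and 33.7 in control female mice, also without overlap, with a log2 difference of 2.55 that was poorly determined (95% interval 0.09 to 5.01, adjusted p = 0.214).

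Of the 4 probe sets that carry a Mup symbol, Mup10 was the one that passed the test, and it is not among the 8. The platform table lists no gene for 9211 probe sets, controls included, and these could include others of the family but were not used here. It averaged 5495 ± 2294 in control male and 1396 ± 958 in control female mice (SD, n = 3 each), a log2 difference of 2.27 (standard error 0.52, adjusted p = 0.0149 from limma). It kept the call without control female 1, at 1.46 (adjusted p = 0.0196), and lost it without control male 2 (adjusted p = 0.0702), with the 6 control arrays alone (0.0625), with variances moderated without an intensity trend (0.0807) and in the methods' t-test (0.36). In LDC mice it averaged 5470 in males and 3161 in females, at 0.79 (adjusted p = 0.454).

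Rbp4 was higher in control male mice on every array, at 0.19 on the log2 scale (95% interval 0.02 to 0.36, 1.14-fold, adjusted p = 0.18). The 4 Ttr probe sets had log2 differences of 0.07 to 0.15 with overlapping arrays (adjusted p of 0.345 to 0.678). In total, 0 of the 8 passed the test between control male and control female mice, where 7.73% of all tested probe sets did. All 8 differences were positive, though the 8 probe sets belong to 4 genes and share the same arrays. Of the 8, 3 had every male array above every female array (11.6% of all).

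Within LDC mice the bright Mup3 probe set was lower in males on every array, at 35277, 32778 and 35006, against 42419, 45334 and 43185 in LDC female mice. The log2 difference was -0.35 (95% interval -1.01 to 0.32, adjusted p = 0.614 from limma). With the 6 LDC arrays fitted on their own, which leaves the control females out of the estimate of the spread, the same difference had an adjusted p of 0.00537. Of the 23 alternatives only this 1 called it, and the methods' t-test on the same 6 arrays did not. Mup5 overlapped between LDC males and LDC females, at -0.15 (adjusted p = 0.854). Rbp4 had 0.08 (95% interval -0.09 to 0.25) and Ttr -0.01 to 0.12, all with overlapping arrays. Here 0 of the 8 passed the test over all arrays, where 6.29% of all tested probe sets did. Of the 8, 1 had all male arrays lower (14.4% of all) and 1, the dim Mup3, had all male arrays higher (12.5% of all).

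**Figure D4:**
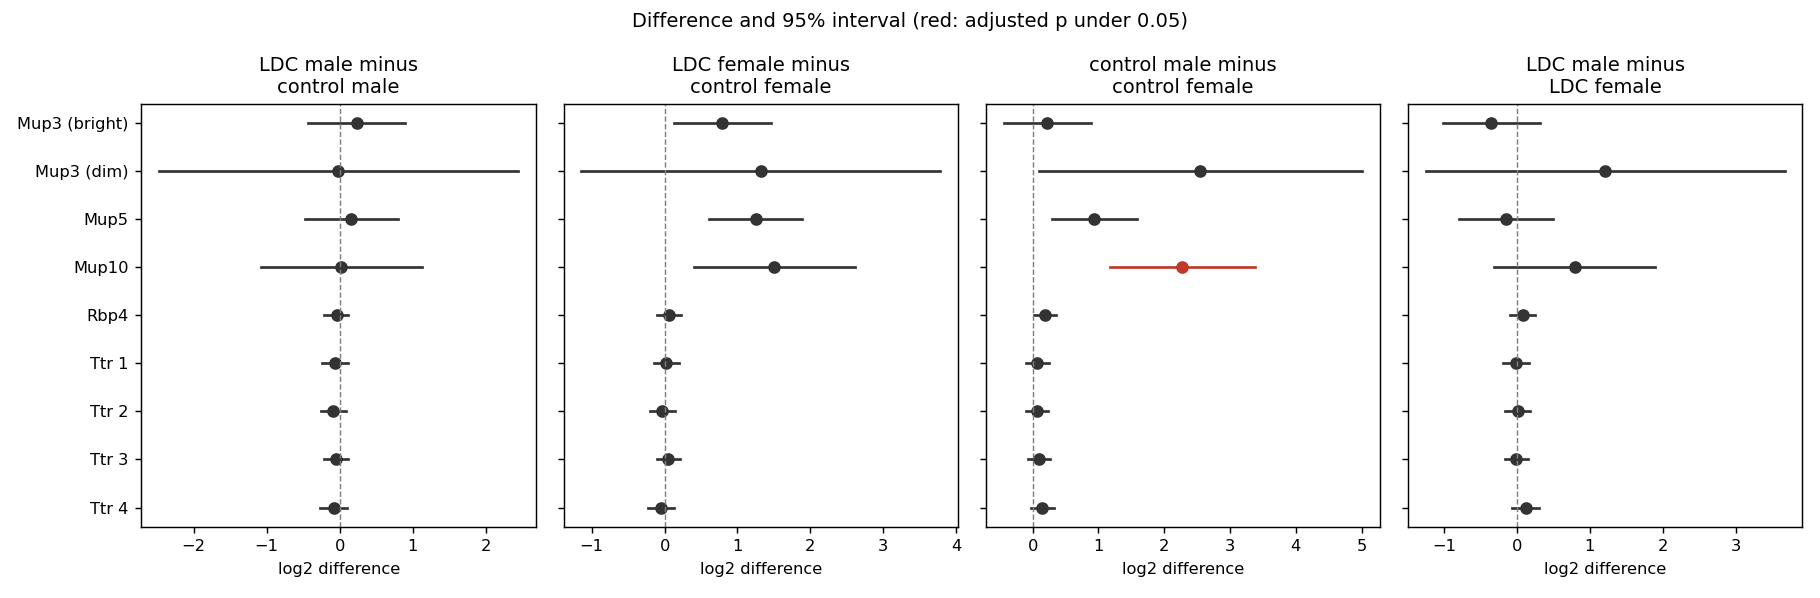
Log2 difference (point) and 95% interval (line) of the Mup3, Mup5, Mup10, Rbp4 and Ttr probe sets in 4 comparisons, each with its own horizontal scale. Only Mup10 between control male and control female mice (2.27) has an adjusted p under 0.05, and Rbp4 and Ttr lie within 0.19 of 0 in every panel.

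Across the 12 arrays, each taken as its deviation from its group mean on the log2 scale, Rbp4 and Ttr varied together. Rbp4 and the Ttr probe sets correlated at r = 0.55 to 0.82, and the Ttr probe sets among themselves at 0.61 to 0.87. The bright Mup3 correlated with Mup5 at 0.78 and with Mup10 at 0.77, but over the 11 arrays without control female 1 these values were -0.64 and -0.23. The 5 genes of 12817 most like the bright Mup3 probe set were Cntnap1 (r = 0.968), Klf9 (0.963), Wfdc21 (0.957), Fmr1nb (0.956) and Cpxm2 (0.952). Without control female 1 they stood at 0.65, 0.53, 0.89, 0.69 and 0.64. Klf9, a transcription factor induced by glucocorticoids, was picked for this likeness. It read 7612, 14595 and 16808 in control female mice, in the same order of arrays as Mup3. Its group means went the other way with LDC. Klf9 averaged 8604 in LDC female and 13005 in control female mice, and 18853 in LDC male and 22918 in control male mice. The bright Mup3 averaged higher with LDC in both sexes. Cntnap1, Fmr1nb and Cpxm2 were dim, and lay below the filter signal on 2, 3 and 4 of the 12 arrays. These correlations share arrays and are given as a description.

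Among genes that regulate the Mup family, the calls lay between the sexes. Of 18 tested genes of growth hormone signalling and Mup regulation (20 listed), 0 were called in the LDC contrasts. In those contrasts 0.0444% to 0.278% of all tested probe sets were called. Between control male and control female mice 4 rose and 1 fell, where 7.73% of all tested probe sets were called. Cebpb, a C/EBP transcription factor of liver, was 0.71 higher on the log2 scale in control males (adjusted p = 0.00815 from limma) and 1.31 higher in LDC males than in LDC females (7.75e-05). Zbtb20, a zinc finger repressor of alpha-fetoprotein in liver, was 0.64 higher in control males (0.0051) and 0.85 higher in LDC males (0.000585). Cebpa was 0.46 higher in control males (0.0065). Hnf4a (0.37) and Nr1i3 (-0.65) kept their calls in 4 and 5 of the 12 fits with 1 array left out.

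Bcl6, a repressor that opposes STAT5 at sex-biased genes, read 1809, 2523 and 1810.4 in LDC male mice, against 232, 190.5 and 404 in LDC female mice. LDC males exceeded LDC females by 2.95 on the log2 scale (standard error 0.48, limma adjusted p = 0.00148), and the call held in all 12 fits with 1 array left out. Control male mice read 419.7, 828 and 1953, and control female mice 235.6, 582 and 209.6. The control males were higher by 1.52, in the same direction (limma adjusted p = 0.0692). The difference of the LDC effects (male minus female) was 1.43 for Bcl6 (adjusted p = 0.493). Between LDC male and LDC female mice 3 of the 18 rose and 0 fell (6.29% of all tested probe sets were called), with a median of -0.05, beside -0.0223 over all tested probe sets.

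The male-biased and female-biased lists, chosen with earlier results of these data known, show how far the arrays separate the sexes in these genes. All 14 tested male-biased genes (17 listed) rose in control males relative to control females, with a median of 2.99, and 11 did so in LDC males relative to LDC females, with a median of 2.67. Of the 11 tested female-biased genes (18 listed), 10 fell in control males and 8 in LDC males, with medians of -3.59 and -3.68. The remaining gene in control mice, Cux2, was 0.62 higher in males (adjusted p = 0.206 from limma). Of all tested probe sets, 7.73% were called between the sexes in control mice and 6.29% in LDC mice. With 1 array left out, the calls in control mice held in 9 of 12 fits for Slco1a1, 8 for Cyp2u1 and 9 for C8a, and that of Abcd2 in LDC mice in 7. With LDC in males, Elovl3, a male-biased fatty acid elongase, fell to 3210 in LDC males, against 14825 in control males (log2 difference -2.26, adjusted p = 0.0436, called in 3 of 12 fits with 1 array left out). Acot3, an acyl-CoA thioesterase of the female-biased list, rose to 3357 in LDC males, against 351.6 in control males (log2 difference 3.31, adjusted p = 0.00269, called in all 12). In females, 0 genes of either list were called with LDC. Of all tested probe sets, 0.278% were called with LDC in males and 0.122% in females.

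**Figure D5:**
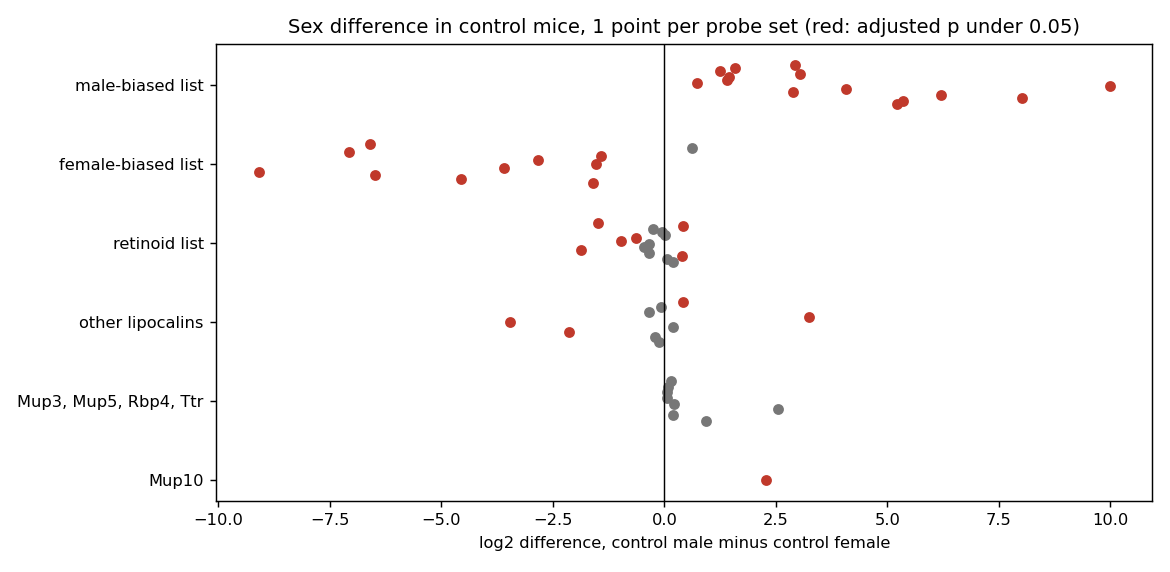
Log2 difference between control male and control female mice, 1 point per gene of each list and per probe set of Mup3, Mup5, Rbp4 and Ttr, with Mup10 beneath. Red marks an adjusted p under 0.05. With all arrays in the fit, all 14 male-biased genes are red and to the right of 0, whereas none of the 8 probe sets of Mup3, Mup5, Rbp4 and Ttr is red.

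Other lipocalins differed among themselves. Of 9 tested (13 listed), 0 were called with LDC in either sex. Of all tested probe sets, 0.278% were called with LDC in males and 0.122% in females. Lcn2, an iron-siderophore binding lipocalin of the acute phase that neutrophils also hold, read 1883, 1145 and 609 in LDC female mice, against 10656, 2548 and 15752 in control female mice. For Lcn2 the difference of the LDC effects (male minus female) was 4.41 (adjusted p = 0.0455 from limma), a call kept in 2 of 12 fits with 1 array left out. In this contrast 0.178% of all tested probe sets were called. Between control male and control female mice Lcn2 fell by 3.46 on the log2 scale and Orm2, an acute phase lipocalin, by 2.13, while Obp2a (3.25) and C8g (0.41) rose. In this comparison 7.73% of all tested probe sets were called. Obp2a, an odorant-binding lipocalin, read 374, 414 and 448 in control male mice, against 51.0, 41.8 and 38.1 in control female mice. Control females 2 and 3 lay below the filter signal of 48.6, so the size of the difference rests on values near it. LDC males read 109, 71.0 and 112, a difference from control males that was not called, and LDC females averaged 45.8. Apom, the lipocalin that carries sphingosine-1-phosphate on lipoproteins, was lower in LDC males than in LDC females (log2 difference -0.58, adjusted p = 0.000756). It was the 1 of 9 called there, where 6.29% of all tested probe sets were. It averaged 10360 ± 444 and 15468 ± 612 in that order (SD, n = 3 each).

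Genes of retinol handling also differed between the sexes. Of 14 tested retinoid genes (20 listed), 0 were called with LDC, beside 0.278% of all tested probe sets in males and 0.122% in females. Between control male and control female mice 2 rose and 4 fell, and between LDC male and LDC female mice 0 rose and 4 fell, where 7.73% and 6.29% of all tested probe sets were called. The 2 that rose, Rxra (0.42) and Aldh1a7 (0.39), kept their calls in 3 and 8 of the 12 fits with 1 array left out, and of the 4 that fell in LDC males, Dhrs3 and Rdh10 kept theirs in 7 and 10. Cyp26a1, which degrades retinoic acid, read 1505, 3176 and 2500.2 in LDC male mice, against 9055, 9224 and 9309.7 in LDC female mice (log2 difference -2.01, adjusted p = 0.000492 from limma), and differed by -1.88 between control male and control female mice (0.000903). Lrat, which esterifies retinol for storage in stellate cells, had -0.98 in control mice (0.00175), and Dhrs3, which reduces retinal to retinol, had -0.64 (0.00136). Rarb, a retinoic acid receptor, had -1.48 (0.00265). Stra6l, a receptor for Rbp4 in liver, was lower in LDC males than in LDC females (-0.98, adjusted p = 0.000903). The stellate cell list, which also holds Lrat, had 1 of 6 called between control male and control female mice, and its sums were 11321 to 14692 in control male and 16197 to 25939 in control female mice. The part of stellate cell number in these differences was not tested.

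Beside Ttr, thyroid hormone is carried in plasma by the product of Serpina7. Of 7 tested genes (10 listed), this gene of thyroxine-binding globulin was the one called with LDC in females (0.122% of all tested probe sets). Serpina7 read 745, 509.7 and 606 in LDC female mice, against 1657, 2041 and 1458 in control female mice. LDC minus control was -1.47 on the log2 scale (standard error 0.24, adjusted p = 0.0248 from limma), called in 8 of 12 fits with 1 array left out and not without control female 1, LDC female 2, LDC female 3 or LDC male 3 (highest adjusted p = 0.154). LDC male mice averaged 2408 and LDC female mice 620.3, a log2 difference of 1.96 (adjusted p = 0.000141) that kept its call in all 12. In males 0 of 7 were called with LDC (0.278% of all tested probe sets). Thra, a thyroid hormone receptor, averaged 210.8 in LDC male and 425.0 in LDC female mice (limma adjusted p = 0.0113, and 0.0591 without LDC female 1). Between LDC male and LDC female mice 6.29% of all tested probe sets were called.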

How the data were processed

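RNA from 12 livers, 3 in each of 4 groups, was hybridised to Affymetrix mouse genome arrays. The authors deposited a table of linear intensity values, 1 per probe set and array, made with MAS 5.0 in the GeneSpring software and scaled so that the mean after trimming 2% at each end is 500.0. No reads or counts underlie the values, and the number of arrays limits the precision. Each array was assigned to its group by its sample label. No source used here gives the litter of a mouse, and the tests take the mice as independent.

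Probe sets were named from the platform table, with symbols updated through the gene ID, and 64 control probe sets were left out. Intensities were log2 transformed. Probe sets with a mean at or above the 40th percentile (27022) were fitted in limma 3.58.1 (R 4.3.3) with 1 mean for each of the 4 groups, 8 residual degrees of freedom and an intensity trend in eBayes. The Benjamini-Hochberg adjustment ran over the 27022, and a call is an adjusted p under 0.05. The 6 contrasts were LDC against control in each sex, the difference and the mean of these effects, and male against female in control and in LDC mice. The procedure was tested on simulated data.

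The members, the gene lists and the tests were chosen with earlier results of these data known. All probe sets of the 9 symbols are described. Of each list, a gene is given by its brightest probe set, and up to 4 genes with the smallest p and any called may be named. The genes most like Mup3 are the 5 with the highest Pearson r. Mup10, Klf9 and the single arrays described were picked out after their values were seen. Promoters and the gene table are RefSeq GRCm38.p6. Figures were drawn with matplotlib 3.10.9.

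The 23 alternatives were quantile normalization, other filters (none, the 20th and the 60th percentile), log2(value + 32), median centring, each pair of groups on its own 6 arrays, no trend, array weights, the methods' t-test, a replicate block, and 12 fits with 1 array left out. With 2 arrays left in a group, that group is assumed to vary like the others.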

Additional observations from a re-analysis of the deposited data

How the results depend on the processing

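Of 134 recomputed counts of members called, 131 stayed at 0. Between LDC male and LDC female mice the count was 1 with the 6 LDC arrays fitted on their own (the bright Mup3 probe set, -0.35, adjusted p = 0.00537). Leaving out 1 array gave counts of 0 to 1 between LDC female and control female mice and 0 to 1 between control male and control female mice, in both through Mup5 without control female 2. No member was called in the main fit, so no called member difference could change sign, and some uncalled ones did. The bright Mup3 difference between control male and control female mice ran from -0.33 to 0.63. That of the dim Mup3 between LDC female and control female mice ran from -0.29 to 2.22. Mup10, called between control male and control female mice, stayed positive there, from 1.46 to 2.80. The Mup5 difference between LDC female and control female mice ran from 0.77 to 1.62 over the alternatives, with adjusted p-values of 0.0175 to 0.742, and that of the bright Mup3 from 0.24 to 1.21. The filter at the 60th percentile left the dim Mup3 probe set untested.

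The replicate block gave 0 members called in each of the 6 contrasts. Deviations of the 18 pairs of arrays with the same replicate number correlated at -0.03 to 0.06, those of other pairs at -0.08 to 0.08, so the numbers were not taken to pair the mice. The 3 arrays of each group limit the precision.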
